A study of Mus musculus with 16 samples.

Results

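The acyl-CoA thioesterases described here are the products of 8 mouse genes, Acot1, Acot2, Acot3, Acot4, Acot5, Acot8, Acot12 and Acot13. They were taken by name from the 25006 gene identifiers of a liver RNA-seq count table, and all 8 were found. Earlier results of these data were known when the members and the lists below were chosen. The table holds 16 poly(A) libraries of liver from C57BL/6 mice, an inbred strain, read as single reads of 50 bases. Mice drank control or antibiotic water, were gavaged once with a slurry of chow or of fast food, and gave liver 4 h later. This gave 4 groups of 4 libraries, called chow control, fast food control, chow antibiotic and fast food antibiotic. No transgene or deleted gene is named for any group, and neither the antibiotics, their doses and duration nor the age of the mice are stated in the labels. The labels do not say that replicate numbers are separate mice, so the p-values measure only the spread between these libraries, which may be technical.

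Acyl-CoA thioesterases hydrolyse the thioester bond of an acyl-CoA and release a free fatty acid (or other acid) and coenzyme A, the reverse of the reaction of the acyl-CoA synthetases. In liver they set, together with beta-oxidation and esterification, how much fatty acid is held in activated form in the cytosol, mitochondria and peroxisomes. The family has 2 unrelated folds. Acot1 to Acot5 are type I enzymes with an alpha/beta-hydrolase fold, and Acot8, Acot12 and Acot13 are type II enzymes with a hotdog fold. Several of the genes are classic targets of the fatty acid receptor PPAR-alpha, which binds DNA with RXR as a pair at a direct repeat spaced by 1 base.

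The type I genes lie side by side on the plus strand of chromosome 12 (GRCm38, GENCODE M21, whole gene). Acot2 spans 83987861 to 83993873, Acot1 84009490 to 84018371, Acot4 84038379 to 84048601, Acot3 84052144 to 84060402 and Acot5 84069325 to 84076020. Acot8 is at 164792765 to 164804882 on the minus strand of chromosome 2, and Acot13 at 24817948 to 24831540 on the minus strand of chromosome 13. Acot12 is at 91741512 to 91786148 on the plus strand of chromosome 13. All 8 are annotated as protein coding. The type I genes are close copies: 13.6% of the 50-base windows of Acot1 transcripts recur in Acot2 and 24.5% of those of Acot2 recur in Acot1. Reads from such windows could be dropped or misassigned, and how the counting treated them is not known here. Acot3 and Acot4 also overlap the annotated gene Gm49366 and the antisense gene 4732463B04Rik, neither of which is in the count table. The antisense gene holds 10.4% of the windows of Acot4, 7.62% of Acot3, 9.64% of Acot5 and 3.96% of Acot1. Acot8 shares 9.77% of its windows with Snx21 on the opposite strand, and Acot12 shares 3.08% with another antisense gene. Acot13 shared none.

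RefSeq promoter windows (GRCm38.p6, 250 bases before to 50 after the start) were at hand for 7 of the 8 genes. Shown here, 5′ to 3′ on the gene's own strand, are the windows of the 3 genes with the largest falls under antibiotic water, of Acot4, which rose after fast food in antibiotic water, and of Acot12, the most abundant member. Capitals mark matches, on either strand and with at most 3 mismatches, to a direct repeat 1, that is AGGTCA followed by any base and by AGGTCA again.
Acot1, chr12:84009252-84009551, plus strand: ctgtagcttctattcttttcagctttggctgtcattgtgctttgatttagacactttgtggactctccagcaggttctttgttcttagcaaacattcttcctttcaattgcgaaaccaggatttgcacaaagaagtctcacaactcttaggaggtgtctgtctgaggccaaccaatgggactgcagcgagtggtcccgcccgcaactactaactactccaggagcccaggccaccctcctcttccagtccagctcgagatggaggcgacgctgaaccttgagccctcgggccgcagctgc
Acot2, chr12:83987611-83987910, plus strand: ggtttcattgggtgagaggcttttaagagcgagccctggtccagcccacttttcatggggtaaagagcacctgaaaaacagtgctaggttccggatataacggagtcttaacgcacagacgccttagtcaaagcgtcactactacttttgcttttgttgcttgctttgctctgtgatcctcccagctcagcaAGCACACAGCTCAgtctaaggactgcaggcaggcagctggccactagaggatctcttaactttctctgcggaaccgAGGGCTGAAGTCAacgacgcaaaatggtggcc
Acot8, chr2:164804832-164805131, minus strand: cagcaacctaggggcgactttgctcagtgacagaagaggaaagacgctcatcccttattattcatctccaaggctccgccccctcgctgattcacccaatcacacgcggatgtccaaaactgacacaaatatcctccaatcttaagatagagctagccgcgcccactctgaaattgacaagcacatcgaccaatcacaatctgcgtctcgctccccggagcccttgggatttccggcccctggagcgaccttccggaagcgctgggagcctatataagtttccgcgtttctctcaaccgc
Acot4, chr12:84038129-84038428, plus strand: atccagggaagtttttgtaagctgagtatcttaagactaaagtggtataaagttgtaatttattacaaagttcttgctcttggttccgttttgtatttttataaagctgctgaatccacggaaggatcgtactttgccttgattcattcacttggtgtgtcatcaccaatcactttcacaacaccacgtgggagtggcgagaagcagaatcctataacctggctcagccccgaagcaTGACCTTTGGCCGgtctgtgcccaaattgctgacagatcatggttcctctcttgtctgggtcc
Acot12, chr13:91741271-91741570, plus strand: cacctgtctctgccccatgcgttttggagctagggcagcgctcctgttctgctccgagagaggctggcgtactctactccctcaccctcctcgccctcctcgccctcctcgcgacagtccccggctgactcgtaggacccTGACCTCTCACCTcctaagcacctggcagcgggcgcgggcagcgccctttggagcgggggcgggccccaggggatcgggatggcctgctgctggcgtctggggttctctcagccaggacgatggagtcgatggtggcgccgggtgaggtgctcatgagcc
An exact repeat was in no member's window and in 0.0396% of all 32851 windows. With at most 2 mismatches it was in the windows of Acot4 and Acot12 and in 3.86% of all windows. On the minus strand the Acot12 match reads AGGTGAGAGGTCA (1 mismatch, at -110) and the Acot4 match CGGCCAAAGGTCA (2 mismatches, at -13). With at most 3 mismatches it was in 5 members (Acot2, Acot3, Acot4, Acot5 and Acot12) and in 24.6% of all windows. Acot1 and Acot8 had no capitals. The letters CCAAT were on either strand in every member window but that of Acot12 (37.4% of all windows), GGGCGG in those of Acot1, Acot8 and Acot12 (35.7%), and TATAAA in that of Acot4 (13.6%). These are matches of letters in short windows and say nothing of binding.

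Total counts ran from 8954378 to 18954655 per library. Reads in 4 rRNA-like features took 0.12% to 0.587% of counts in 9 libraries and 2.45% to 8.42% in the other 7, which hold 2 chow control, 2 chow antibiotic and 3 fast food antibiotic libraries. Fast food antibiotic replicate 2 stood apart from its group. On the first principal component of all tested genes (38.8% of the variance) it lay at 45.4, among the chow antibiotic libraries (36.5 to 74.1), while the other 3 of its group lay at -16.1 to -10. No chow antibiotic library lay near those 3. Whether replicate 2 was mislabelled or differed from its group was not tested. Hepatocyte transcripts (Alb, Apoa1, Ttr, Serpina1a, Cps1, Fgb) were present in every group, and brown adipocyte and muscle markers summed to at most 0.297 CPM (counts scaled to library size with TMM factors). Within their groups, acute phase transcripts peaked in replicate 2 of chow control, replicate 4 of chow antibiotic and replicate 2 of fast food antibiotic.

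Per kilobase of exon (RPKM), Acot12, a cytosolic acetyl-CoA hydrolase, was the most abundant member in every group. In chow control livers it stood at 73.3 ± 4.18 RPKM (SD, n = 4, as for all group values below). Acot13, a hotdog enzyme also called Them2 that binds the phosphatidylcholine transfer protein, followed at 37.1 ± 7.20 RPKM, and cytosolic Acot1 at 30.5 ± 5.90 RPKM. Peroxisomal Acot3 was at 19.8 ± 21.5 RPKM, with an SD above its mean. Mitochondrial Acot2 (11.1 ± 1.86 RPKM), peroxisomal Acot8 (10.2 ± 0.928 RPKM) and peroxisomal Acot4 (10.03 ± 2.88 RPKM) lay within their spread of each other. Acot5, a peroxisomal medium-chain enzyme, had 5 counts in all, 1 in each of 5 libraries, below the limit of 3 counts (0.158 to 0.335 CPM, counting error only) in all 16. It was not detectable at this depth and was not tested. The other 7 members passed the filter on low counts and were tested in all 5 comparisons.

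**Figure D1:**
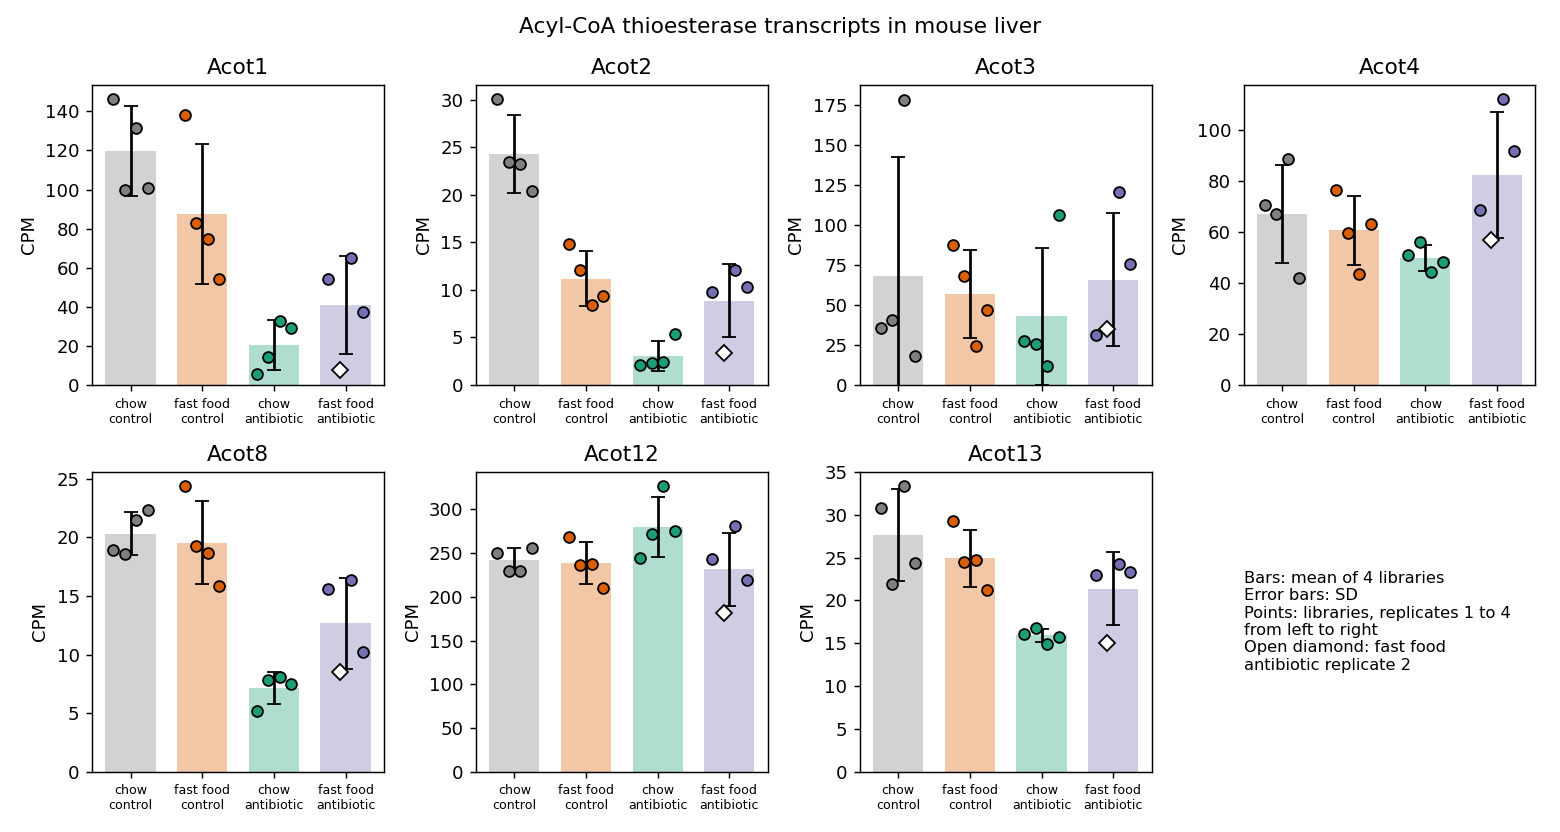
Level of each tested member (CPM, linear axis from 0) in the 4 groups. Bars are means of 4 libraries, error bars the SD (the lower end falls below 0 for Acot3), and points the libraries. Acot1, Acot2, Acot8 and Acot13 have all 4 chow antibiotic points below all 4 chow control points, and the open diamond, fast food antibiotic replicate 2, is the lowest point of its group for every member but Acot3.

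The effect of antibiotic water after the chow meal was the largest in the family. Acot1, Acot2, Acot8 and Acot13 were lower in chow antibiotic than in chow control livers, while Acot3, Acot4 and Acot12 did not pass. So 4 of 7 tested members passed, all lower, where 23.8% of the 13180 genes tested passed and 13.2% passed as lower. The median log2 fold change was -0.80 over the 7 members and -0.01 over all genes. In bulk liver, fewer cells of a type and less RNA per cell cannot be told apart.

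Acot2 cleaves long-chain acyl-CoA in the mitochondrial matrix. It was at 30.1, 23.4, 23.2 and 20.4 CPM in the chow control libraries (replicates 1 to 4) and at 2.11, 2.28, 2.41 and 5.40 CPM in the chow antibiotic libraries. Its lowest control library was well above its highest antibiotic library. The fold change was 8.43-fold lower (log2 -3.08 ± 0.36 SE, edgeR adjusted p = 6.55e-05), which ranked Acot2 61 by p among all genes tested.

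Acot1, the cytosolic neighbour of Acot2, was at 146, 99.7, 132 and 101 CPM after chow in control water. With antibiotic water it was at 5.72, 14.2, 33.0 and 29.0 CPM. All 4 antibiotic libraries were below all 4 controls, and they differed among themselves by 5.76-fold. Acot1 was 5.88-fold lower (log2 -2.56 ± 0.61, edgeR adjusted p = 0.0089). With the counts of Acot1 and Acot2 summed as 1 feature, the log2 fold change was -2.62 ± 0.56 (edgeR adjusted p = 0.00486).

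Acot8, a peroxisomal enzyme of broad chain-length range that is inhibited by free coenzyme A, was at 18.9, 18.6, 21.5 and 22.3 CPM in chow control. It was at 5.17, 7.79, 8.08 and 7.53 CPM in chow antibiotic. The groups did not overlap, and both were narrow. The fold change was 2.86-fold lower (log2 -1.52 ± 0.21, edgeR adjusted p = 0.00014). Acot13 went from 30.8, 21.9, 33.4 and 24.4 CPM to 16.1, 16.8, 15.0 and 15.8 CPM. Its antibiotic libraries lay within 1.12-fold of each other and below every control. It was 1.74-fold lower (log2 -0.80 ± 0.16, edgeR adjusted p = 0.00224). Non-overlapping groups with the antibiotic side lower, as for these 4 members, were seen for 13.6% of all genes.

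Acot12 was at 250.4, 230.0, 229.5 and 256 CPM in chow control and at 245, 272, 327 and 275 CPM in chow antibiotic. The groups overlapped, and the log2 fold change of 0.21 ± 0.13 did not pass (edgeR adjusted p = 0.252, 95% interval -0.06 to 0.49). Acot4, which acts on succinyl-CoA and dicarboxylyl-CoA in peroxisomes, was at 70.5, 67.1, 88.5 and 41.8 CPM against 50.9, 55.9, 44.1 and 48.0 CPM. The groups overlapped through chow control replicate 4 (log2 -0.43 ± 0.23, edgeR adjusted p = 0.187). Acot3, a peroxisomal long-chain enzyme, was at 35.6, 40.7, 178 and 18.2 CPM against 27.7, 25.8, 12.1 and 106 CPM. One library in each group was far above the rest. Its log2 fold change of -0.70 ± 0.80 (edgeR adjusted p = 0.562) turned to 0.43 without chow control replicate 3.

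**Figure D2:**
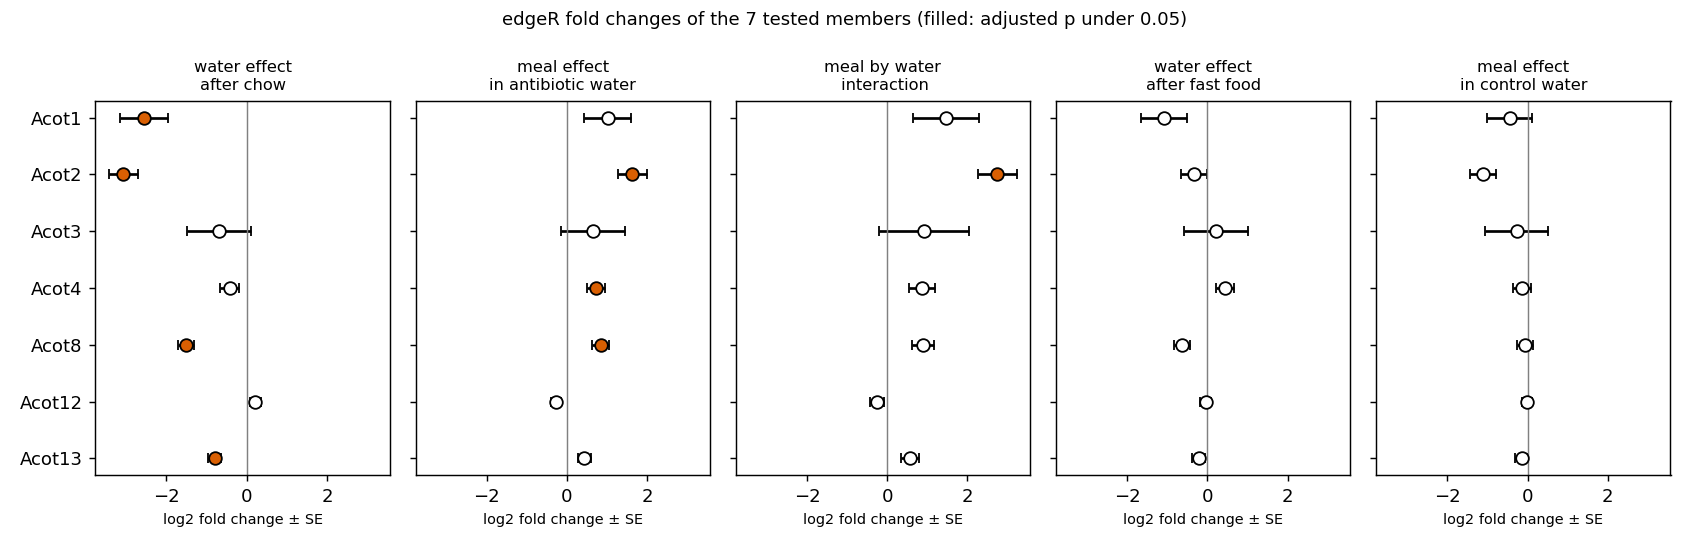
Log2 fold changes ± SE of the 7 tested members in the 5 comparisons (edgeR, all 16 libraries). Filled points have an adjusted p under 0.05; the water effect after chow holds 4 of them, all below 0, the meal effect in antibiotic water 3, all above 0, the interaction 1, and the other comparisons none.

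All 4 falls kept their call without each of the 8 libraries in turn. Among the libraries with an rRNA-like share under 1% of counts (2 chow control, 2 chow antibiotic) the log2 fold changes were -3.28 for Acot2, -2.60 for Acot1, -1.73 for Acot8 and -0.90 for Acot13. There edgeR called Acot2, Acot8 and Acot13, and Acot1 had an adjusted p of 0.0842. Among those with a share over 1% (again 2 against 2) they were -2.83, -2.51, -1.27 and -0.67. No member was called on that side, where edgeR called 3 of 12339 genes in all.

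The share of Acot12 in the summed RPKM of the family was 62.5 ± 6.66% in chow antibiotic and 39.0 ± 7.0% in chow control. The lowest chow antibiotic share, 53.4%, was above the highest chow control share, 46.2%. Acot1 made up 15.9 ± 1.96% in chow control and 3.66 ± 2.05% in chow antibiotic. The summed level was 192 ± 31.9 RPKM in chow control, 169 ± 31.3 in fast food control, 137 ± 17.2 in chow antibiotic and 151 ± 40.2 in fast food antibiotic. These shares are descriptions of the same counts and were not tested.

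**Figure D3:**
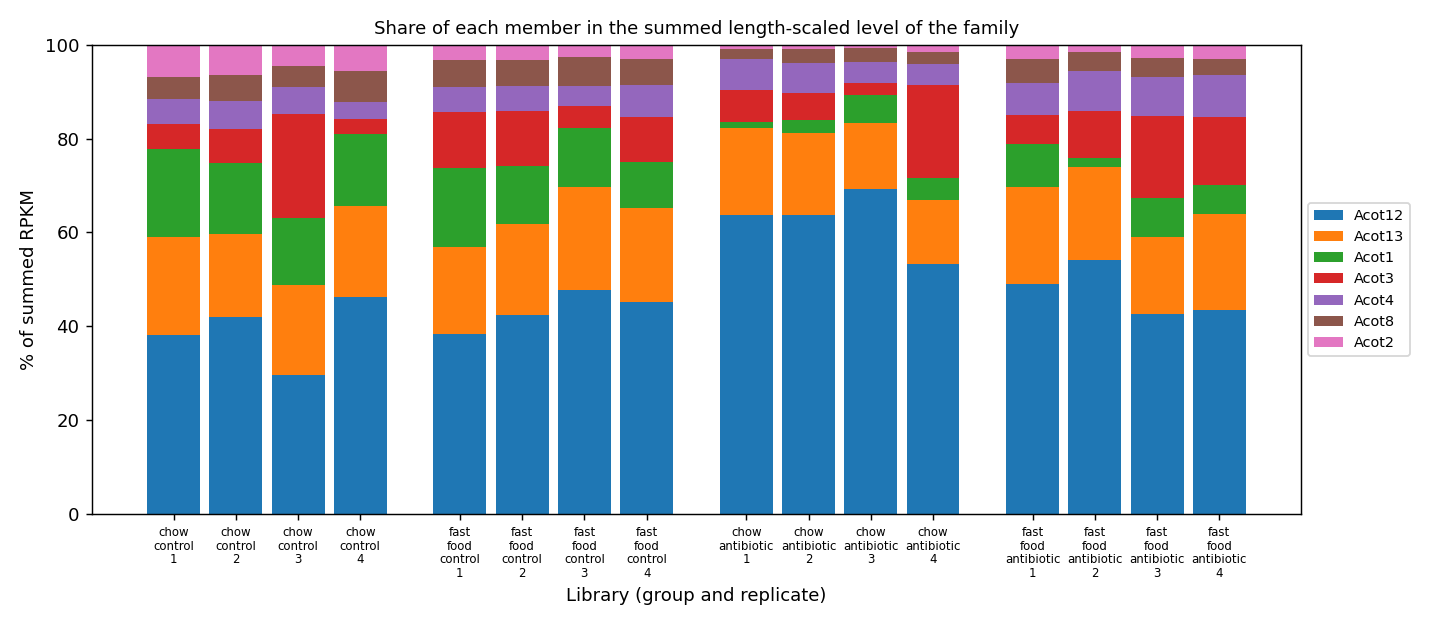
Share of each member in the summed RPKM of the family (%, stacked to 100%), 1 bar per library in its group, Acot5 left out as it is near 0. Acot12 takes 53.4% to 69.4% in the 4 chow antibiotic libraries and 29.7% to 46.2% in the 4 chow control libraries, and the Acot1 band is thinnest in replicate 1 of chow antibiotic and replicate 2 of fast food antibiotic.

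In antibiotic water, the fast food meal was followed by higher Acot2, Acot8 and Acot4 than the chow meal. So 3 of 7 tested members passed, all higher, where 13.7% of genes passed and 7.78% passed as higher. The median log2 fold change was 0.73 over the 7 members and 0.03 over all genes. This comparison shares the chow antibiotic libraries with the one above.

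After fast food in antibiotic water the level of Acot2 was 9.75, 3.37, 12.1 and 10.3 CPM, beside 2.11 to 5.40 CPM after chow. Replicates 1, 3 and 4 were above every chow antibiotic library, and replicate 2 was below the highest of them. It was 3.10-fold higher (log2 1.63 ± 0.36, edgeR adjusted p = 0.0112), a call kept without each of the 8 libraries in turn. With Acot1 and Acot2 summed, the log2 fold change was 1.10 ± 0.54 (edgeR adjusted p = 0.187).

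Acot8 was at 15.6, 8.54, 16.3 and 10.2 CPM after fast food, above all 4 chow antibiotic libraries. It was 1.79-fold higher (log2 0.84 ± 0.21, edgeR adjusted p = 0.0162). The call was lost without chow antibiotic replicate 1 (edgeR adjusted p = 0.0512) or fast food antibiotic replicate 3 (0.063). Acot4 was at 68.5, 56.8, 112 and 91.8 CPM after fast food. Its lowest library, replicate 2, was just above the highest chow antibiotic library at 55.9 CPM. It was 1.66-fold higher (log2 0.73 ± 0.23, edgeR adjusted p = 0.0465), and the call was lost without any 1 of the 4 chow antibiotic libraries, and without replicate 1, 3 or 4 of fast food antibiotic (edgeR adjusted p 0.0578 to 0.155). The absence of overlap seen for Acot8 and Acot4 was also seen, in the higher direction, for 7.78% of all genes.

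The fast food antibiotic level of Acot13 was 23.0, 15.0, 24.3 and 23.3 CPM. Replicate 2 lay among the chow antibiotic libraries and the other 3 lay above them. The log2 fold change of 0.43 ± 0.16 did not pass (edgeR adjusted p = 0.0848), and without replicate 2 it was 0.56 and passed (0.0108). Acot1 was at 54.3, 7.75, 65.1 and 37.3 CPM, again with replicate 2 inside the chow antibiotic range (log2 1.02 ± 0.59, edgeR adjusted p = 0.261). Acot3 (31.5, 35.2, 121 and 75.9 CPM, log2 0.64 ± 0.80, edgeR adjusted p = 0.625) and Acot12 (243, 181, 281 and 219 CPM, log2 -0.27 ± 0.13, edgeR adjusted p = 0.165) overlapped with their chow antibiotic values.

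**Figure D4:**
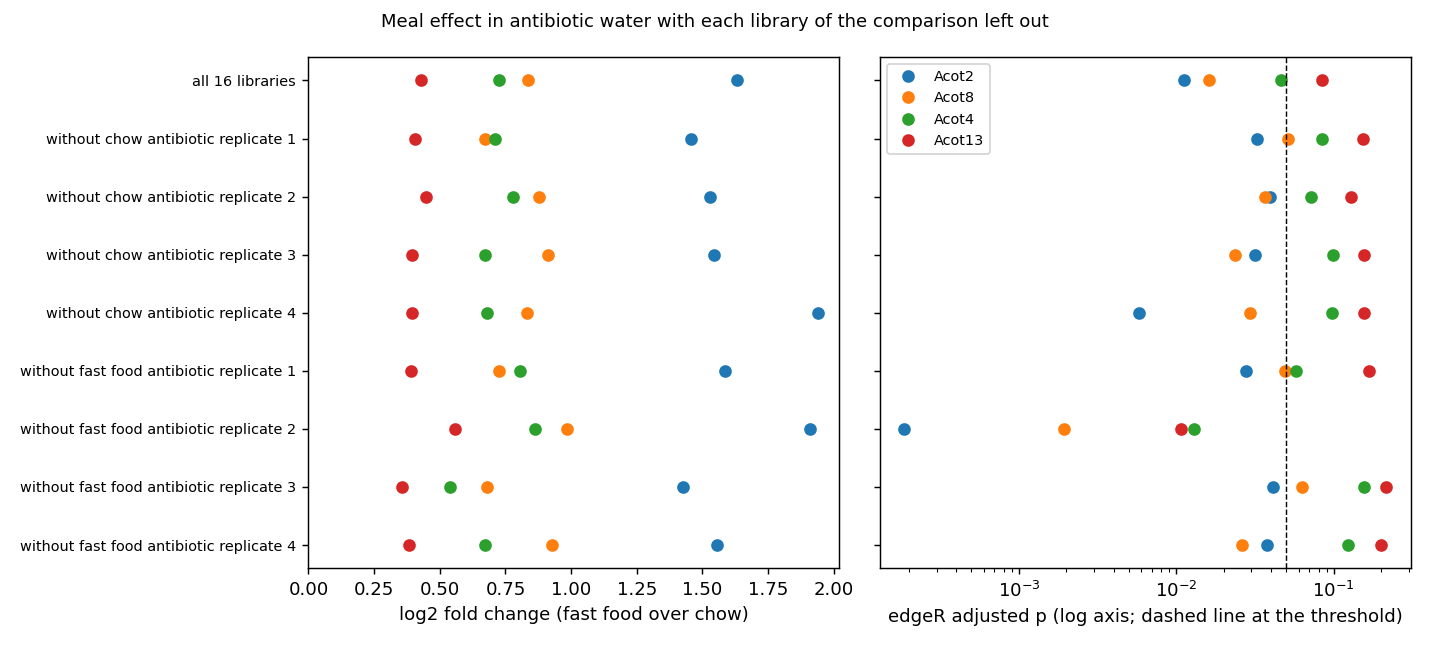
Meal effect in antibiotic water for 4 members, with all 16 libraries and with each of the 8 libraries of the comparison left out. The left panel gives the log2 fold change of fast food over chow, the right panel the edgeR adjusted p on a log axis with the threshold dashed. Acot2 is left of the threshold in every row, and Acot13 only without fast food antibiotic replicate 2.

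Without fast food antibiotic replicate 2, 4 members passed (Acot2, Acot4, Acot8 and Acot13), as did 22.8% of all genes. With the high-share libraries alone (2 chow, 3 fast food, replicate 2 among them) no member passed, with log2 fold changes of 1.04 for Acot2, 0.55 for Acot8 and 0.45 for Acot4, and edgeR called 1 of 12339 genes in all. The low-share side held 1 fast food antibiotic library, too few for a comparison. A fit to these 2 groups alone called 0 of the 7 members (edgeR adjusted p 0.0734 for Acot2) and 229 genes in all.

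The difference between the meal effects in the 2 waters passed for Acot2 alone of the 7 members (log2 2.75 ± 0.48, edgeR adjusted p = 0.00874), where 3.94% of genes passed. Its log2 fold changes between the meals were -1.11, which did not pass, in control water and 1.63 in antibiotic water. The call was kept without each of the 16 libraries in turn. Acot8 (0.90 ± 0.28, edgeR adjusted p = 0.0802), Acot4 (0.87 ± 0.32, 0.133) and Acot13 (0.58 ± 0.23, 0.151) did not pass. All 3 passed without fast food antibiotic replicate 2 (edgeR adjusted p 0.0155, 0.0489 and 0.0273). Acot1 (1.47 ± 0.81, edgeR adjusted p = 0.324), Acot3 (0.91 ± 1.12, 0.686) and Acot12 (-0.25 ± 0.18, 0.455) did not pass with or without it.

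In control water no member passed between the meals (0 of 7, edgeR), where 0.577% of genes passed. Acot2 alone had an unadjusted p under 0.05, and DESeq2 called 1 member, Acot2, and 299 of 13312 genes in all. Acot2 was at 14.8, 12.1, 8.46 and 9.40 CPM after fast food, all below the 20.4 to 30.1 CPM after chow. It was 2.16-fold lower (log2 -1.11 ± 0.32, edgeR adjusted p = 0.136, 0.0353 among the low-share libraries of 2 chow and 4 fast food). The DESeq2 adjusted p was 0.035, and a lower group without overlap was seen for 5.15% of all genes. The order of Acot2 over the groups was thus chow control, fast food control, fast food antibiotic and chow antibiotic from high to low. In edgeR with all 16 libraries, the neighbours in that order that differed past the threshold were the last pair, fast food antibiotic and chow antibiotic.

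Acot1 was at 138, 82.9, 74.8 and 54.3 CPM after fast food in control water, and its highest library lay inside the chow range (log2 -0.45 ± 0.56, edgeR adjusted p = 0.838). The other members had small differences between the meals. They were Acot8 (24.4, 19.2, 18.7 and 15.9 CPM after fast food, log2 -0.06 ± 0.19), Acot12 (269, 237, 237 and 210.1 CPM, -0.02 ± 0.13), Acot13 (29.3, 24.5, 24.7 and 21.2 CPM, -0.15 ± 0.16), Acot4 (76.3, 59.4, 43.7 and 63.0 CPM, -0.14 ± 0.23) and Acot3 (87.9, 67.9, 24.2 and 47.1 CPM, -0.27 ± 0.79), with edgeR adjusted p from 0.796 to 0.972. The 95% interval was -0.29 to 0.25 for Acot12 and -1.97 to 1.43 for Acot3, so the precision differed widely between members.

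With the fast food meal, antibiotic and control water did not differ past the threshold for any member (0 of 7, edgeR), where 5.99% of genes passed. Only Acot8 had an unadjusted p under 0.05. DESeq2 called 1 member, Acot8 (log2 -0.64, DESeq2 adjusted p = 0.0296), and 1523 of 12584 genes in all. In edgeR Acot8 had a log2 fold change of -0.62 ± 0.20 (adjusted p = 0.0664, and 0.0344 without fast food antibiotic replicate 3). Acot1 had -1.09 ± 0.57 (edgeR adjusted p = 0.248), Acot2 -0.33 ± 0.32 (0.55), Acot4 0.44 ± 0.23 (0.232), Acot13 -0.22 ± 0.16 (0.401), Acot3 0.22 ± 0.79 (0.895) and Acot12 -0.04 ± 0.13 (0.871). These values share the fast food antibiotic libraries with the meal comparison in antibiotic water. An rRNA-like share over 1% was seen in 0 fast food control and 3 fast food antibiotic libraries. With that share as a covariate, edgeR called 0 of 13180 genes between the waters after fast food, beside 790 without the covariate. The calls of listed genes given below for this comparison were thus not kept in that fit.

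Members also differed in how their libraries spread. The coefficient of variation within a group was 48.2% to 109% for Acot3 and 5.70% to 18.2% for Acot12. For Acot1 it was 19.3% in chow control and 62.2% in chow antibiotic. Over the 16 libraries, Acot1 and Acot8 had a Pearson r of log2 CPM of 0.92, Acot1 and Acot2 of 0.90, and Acot2 and Acot13 of 0.88. Acot3 and Acot4, neighbours on the chromosome that share sequence, had 0.73. With the 4 group means removed, these pairs had 0.85, 0.82, 0.64 and 0.74 in that order. Acot12 had 0.16 with Acot1 and -0.09 with Acot8, and, once the 4 group means were removed, 0.87 and 0.88. These last values pool the 4 groups and do not describe each of them: in chow control, replicate 4 had the highest Acot12 level (256 CPM) and an Acot1 level near the lowest (101 CPM). All are descriptions over 16 points that share library depth and scaling, and the part of sequence shared between copies in the type I values was not tested.

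The genes with the most similar pattern to each member were sought among 10422 genes by r over the 16 libraries. For Acot1 they were Etfdh, of mitochondrial electron transfer (0.97), the omega-hydroxylase gene Cyp4a14 (0.97) and the epoxide hydrolase gene Ephx2 (0.97). For Acot2 they were the lipid droplet gene Plin2 (0.96), the peroxisomal carnitine octanoyltransferase gene Crot (0.96) and Bri3bp (0.95). For Acot8 they were the peroxisomal transporter gene Abcd3 (0.98), Mup3 (0.97, a member of a family of near-identical copies) and the peroxisomal protease gene Lonp2 (0.97). For Acot13 they were Pdzk1 (0.95) and Vars2 (0.94). With the 4 group means removed, r was 0.92 to 0.96 for the genes named for Acot1 and 0.76 to 0.91 for Acot2. It was 0.83 to 0.91 for those of Acot8 and 0.80 to 0.85 for those of Acot13. The best matches were weaker for Acot12 (Rnf103, Nsun2 and Zkscan17, 0.80 to 0.85), Acot4 (Atrn and Lrit2, both 0.78) and Acot3 (Synj2, Nfe2l2 and Spg11, 0.73 to 0.75).

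Among 6 listed regulators and partners, the PPAR-alpha gene Ppara was at 204, 156, 200.3 and 184 CPM in chow control. It was at 74.2, 55.1, 85.5 and 31.7 CPM in chow antibiotic, with no overlap. It was lower with antibiotic water after chow (log2 -1.59 ± 0.28, edgeR adjusted p = 0.00107) and higher after fast food in antibiotic water (1.57 ± 0.28, 0.00428), calls kept without each library in turn. Fast food antibiotic replicates 1 to 4 were at 206, 96.2, 239 and 195 CPM, replicate 2 again the lowest. The interaction for Ppara was 1.45 ± 0.38 (edgeR adjusted p = 0.0467) and passed in 3 of 16 fits with 1 library left out. The water effect after chow called 3 more of the 6, where 23.8% of all genes passed. Pctp, whose protein binds Acot13, fell (-0.88 ± 0.23, edgeR adjusted p = 0.0106), the coactivator gene Ppargc1a rose (1.45 ± 0.37, 0.0117) and Rxra fell (-0.33 ± 0.11, 0.0424, kept in 1 of 8 fits with 1 library left out). No regulator passed in control water or between the waters after fast food in edgeR (0 and 1 of 6 with an unadjusted p under 0.05). DESeq2 called 0 and 1 of them, beside 299 of 13312 and 1523 of 12584 genes in all.

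PPAR-alpha targets outside the family were a list of 30, all tested. With antibiotic water after chow 22 fell and 0 rose (median log2 fold change -0.97, with 23.8% of all genes called), and after fast food in antibiotic water 15 rose and 0 fell (median 0.60, with 13.7% called). The falls of lowest p were in Plin2 (-2.76 ± 0.30), the aldehyde dehydrogenase gene Aldh3a2 (-2.50 ± 0.30), the mitochondrial carnitine palmitoyltransferase gene Cpt2 (-1.44 ± 0.19) and the fatty acid binding protein gene Fabp1 (-4.12 ± 0.51). The rises of lowest p were in Plin2 (1.66 ± 0.29), the hepatokine gene Fgf21 (3.77 ± 0.65), Fabp1 (2.63 ± 0.48) and Cpt2 (0.92 ± 0.19). These 8 calls were kept without each library in turn. Without fast food antibiotic replicate 2 the counts were 25 lower and 22 higher, with 27.4% and 22.8% of all genes called. The interaction passed for 6, all positive, and for 14 without that replicate, with 3.94% and 11.2% of all genes called. The fast food meal in control water passed for Cd36 alone (0.91 ± 0.20, edgeR adjusted p = 0.0488, lost without any 1 of the 8 libraries), with 0.577% of all genes called. The water after fast food passed for 3, all lower, and for 1 without replicate 2, with 5.99% and 2.83% of all genes called.

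Among 20 listed genes of peroxisomal beta-oxidation, whose products Acot3, Acot4 and Acot8 can hydrolyse, 13 fell and 1 rose with antibiotic water after chow (median -0.81, with 23.8% of all genes called). They included Crot (-2.59 ± 0.27), Hsd17b4 (-0.91 ± 0.14) and the thiolase gene Acaa1b (-4.65 ± 0.67, of a family of close copies). The rise was in Hacl1, an enzyme of alpha-oxidation. After fast food in antibiotic water 7 rose and 1 fell, with 13.7% of all genes called (11 and 1 without fast food antibiotic replicate 2, with 22.8%), among them Decr2 (1.12 ± 0.24), Ehhadh (2.67 ± 0.55) and Acaa1b (3.01 ± 0.62). Their interaction passed for 3, and for 8 without replicate 2, with 3.94% and 11.2% of all genes called. Between the waters after fast food 3 fell and 1 rose, and 0 passed without that replicate, with 5.99% and 2.83% of all genes called. None passed between the meals in control water (edgeR, 4 of 20 with an unadjusted p under 0.05, 0 called by DESeq2).

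The acyl-CoA synthetases, which run the opposite reaction, had 16 of 18 listed genes tested. With antibiotic water after chow 9 fell and 2 rose, with 23.8% of all genes called. The long-chain synthetase gene Acsl4 rose (1.34 ± 0.12, edgeR adjusted p = 9.7e-06), while Acsf2 (-1.61 ± 0.25), the fatty acid transport protein gene Slc27a4 (-0.74 ± 0.13) and the medium-chain synthetase gene Acsm5 (-0.89 ± 0.17) fell. After fast food in antibiotic water Acsf2 (1.27 ± 0.25) and Acsm5 (0.69 ± 0.17, lost in 2 of 8 fits with 1 library left out, edgeR adjusted p up to 0.0553 without fast food antibiotic replicate 3) rose, with 13.7% of all genes called. Without fast food antibiotic replicate 2 the list held 6 rises and 2 falls, with 22.8% of all genes called. Between the waters after fast food 1 rose (Acsl4, 0.81 ± 0.12) and 3 fell, and only 1 rise was left without that replicate, with 5.99% and 2.83% of all genes called. The bile acid-CoA ligase gene Slc27a5 rose after fast food in control water (0.69 ± 0.13, edgeR adjusted p = 0.0271, kept in 1 of 8 fits with 1 library left out), with 0.577% of all genes called. It was also the other rise with antibiotic water after chow (0.59 ± 0.13, edgeR adjusted p = 0.00473), named here after its value was seen. Its interaction was -1.02 ± 0.19 (edgeR adjusted p = 0.00934), a call kept without each of the 16 libraries in turn. The interaction also passed for Acsf2 (1.39 ± 0.35, edgeR adjusted p = 0.0375, kept in 3 of 16 fits with 1 library left out), with 3.94% of all genes called.

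Other thioesterases and relatives had 10 of 12 listed genes tested. After chow 3 of the 10 passed between the waters, where 23.8% of all genes did, and in antibiotic water 4 of the 10 passed between the meals, where 13.7% did. With antibiotic water after chow the type I gene Acot6 fell (-1.49 ± 0.35, at 1.85 ± 0.107 CPM in chow control), as did the acyltransferase gene Acnat1 (-0.97 ± 0.13). Acot7, a cytosolic hotdog enzyme best known from brain, rose (0.66 ± 0.15, from 8.97 ± 1.33 to 14.2 ± 1.85 CPM). In the meal comparison with antibiotic water, Acnat1 (0.71 ± 0.13) and Them4 (0.69 ± 0.19) rose after fast food, and the bile acid conjugation gene Baat (-0.78 ± 0.15) and Acot9 (-0.69 ± 0.22) fell. The calls of Them4 and Acot9 were kept in 2 of 8 fits with 1 library left out each. Of 12 listed genes of coenzyme A synthesis and breakdown, 2 passed in edgeR with antibiotic water after chow, where 23.8% of all genes did. In the other comparisons 0 passed (2 to 4 with an unadjusted p under 0.05 in each). DESeq2 called 3 with antibiotic water after chow (3549 of 14777 genes in all), 1 between the waters after fast food (1523 of 12584) and 1 for the interaction (1106 of 11859). Ppcs fell (-1.08 ± 0.29) and the pantothenate kinase gene Pank3 rose (0.53 ± 0.16, lost in 2 of 8 fits with 1 library left out).

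Summed markers of some cell types lay in different ranges in the chow groups of the 2 waters. The 6 hepatocyte markers summed to 94435 to 127220 CPM in chow control and to 152754 to 217770 CPM in chow antibiotic. The 6 Kupffer cell markers summed to 177 to 540 CPM and to 117 to 153 CPM. Marco went the other way (22.4 ± 17.1 to 31.5 ± 4.55 CPM), while the other Kupffer cell markers had lower means in chow antibiotic. The 5 lymphocyte markers, all low, summed to 1.44 to 2.25 CPM and to 0.389 to 1.42 CPM, ranges that barely separated. Cd3e had a higher mean in chow antibiotic (0.351 to 0.464 CPM) and the other lymphocyte markers lower means, with the largest fall in Ms4a1 (0.742 to 0.0919 CPM). The 5 stellate cell markers overlapped, at 228 to 263 CPM and 111 to 235 CPM. The 5 neutrophil markers were at 1.57 to 9.20 CPM in chow control and at 4.39, 4.55, 2.98 and 73.7 CPM in chow antibiotic replicates 1 to 4, so that replicate 4 alone lay above the control range. In the intestine and pancreas list the fall was in Fabp2, from 131 ± 33.8 to 27.3 ± 11.3 CPM, while the pancreatic Prss2 and Amy2a5 were at 0 in all chow control libraries and the villus gene Vil1 was at most 0.287 CPM in both groups. The part of these shifts, of the rRNA-like share and of the acute phase transcripts in the differences between members was not tested. Without the library highest in acute phase transcripts in each of 3 groups (replicate 2 of chow control, replicate 4 of chow antibiotic, replicate 2 of fast food antibiotic), the same 4 members passed as lower in chow antibiotic, with log2 fold changes of -3.40 for Acot2, -2.81 for Acot1, -1.56 for Acot8 and -0.86 for Acot13. Chow antibiotic replicates 1 and 2, which stayed in that fit, had acute phase sums of 9228 and 11864 CPM, above the 7128 CPM of chow control replicate 2.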

How the data were processed

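Liver poly(A) RNA was measured in 16 libraries in 4 groups of 4, grouped by their titles. The authors deposited raw counts, whole numbers per gene. STAR, HTSeq, cutadapt, FastQC, edgeR and DESeq2 and the build GRCm38.p6 are named in the submitters' processing notes without versions. Strand setting, annotation release and the treatment of multiply matching reads are unstated there. Of 25006 identifiers 24942 matched GENCODE M21 (GRCm38), which also gave exon lengths for RPKM.

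Genes were filtered with filterByExpr (minimum count 10), which left 13180, with library sizes adjusted by TMM. All 16 libraries entered 1 quasi-likelihood model with 4 group means (edgeR 4.0.16, R 4.3.3, common biological coefficient of variation 0.222). Tests were two-sided with Benjamini-Hochberg adjustment over all genes tested and a threshold of 0.05. The SE is the size of the log2 fold change over the root of F. Likeness of patterns used log2 CPM with a prior count of 2, over genes with a mean of at least 1. The fitting code was also run on counts simulated from the main fit. Those counts held no library unlike its group and no effect of the rRNA-like share, so that run does not bear on either.

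The members and lists were chosen with earlier results of these data known. Named were all 8 members, from each list up to 4 called genes of lowest p per comparison, and the 3 genes most like each member, of which a few are not reported here. Alternatives were DESeq2 1.42.0, RLE factors, no filter, a mean of at least 10 counts in every group, the rRNA-like share as a covariate, the replicate number as a block, fits without 1 or 3 libraries or with only the 2 groups compared, and summed copies. The fits to one side of an rRNA-like share of 1%, and list counts without some libraries, were chosen after seeing the data. The 3 libraries left out together were picked by their acute phase sums in these same data.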

Additional observations from a re-analysis of the deposited data

Results flagged for a closer look

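Some libraries lay far from the other 3 of their group, with a gap to the nearest that, over the range of the group, exceeded Dixon's critical value. Acot2 was at 5.40 CPM in chow antibiotic replicate 4 (ratio 0.910, the others at 2.11 to 2.41 CPM). Acot3 was at 178 CPM in chow control replicate 3 (0.860) and at 106 CPM in chow antibiotic replicate 4 (0.835). Acot13 was at 15.0 CPM in fast food antibiotic replicate 2 (0.860, low). Chance gives such a value in about 1 in 20 groups, and 28 were screened. The meal effect of Acot2 differed between the waters, with an interaction of 2.75 ± 0.48 on the log2 scale (edgeR adjusted p = 0.00874).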

How the results depend on the processing

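For single members, 647 alternative fold changes were computed, of which 592 kept direction and side of the threshold, 24 lost and 13 gained a call, and 18 changed sign. Where not shown otherwise, the cause was not tested. With 1 library left out, members called ranged from 4 to 4 for the water after chow, 1 to 4 for the meal in antibiotic water, 0 to 0 for the meal in control water, 0 to 1 for the water after fast food and 1 to 4 for the interaction. The meal in control water called 1 with DESeq2, with the 2 groups alone, without 3 libraries high within their group in acute phase transcripts (the 3 acute phase libraries below) and on the side with an rRNA-like share under 1%. DESeq2 also called 1 for the water after fast food. The interaction called 3 without the 3 acute phase libraries. The meal in antibiotic water called 0 with the 2 groups alone and 0 on the high-share side, as did the water after chow on that side (0), where fewer libraries entered the fit.

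Sign changes were in values that did not pass. Acot12 (water after fast food) was 0.0410 with the share covariate and 0.0364 without the 3 acute phase libraries. On the high-share side Acot3 was -0.48 for the meal in antibiotic water and 0.79 for the water after chow. Leaving out 1 library gave Acot12 -0.0822 to 0.0366 (meal in control water) and -0.152 to 0.0496 (water after fast food). Acot3 ranged from -0.21 to 1.82 (interaction), -0.57 to 0.86 (meal in control water), -1.62 to 0.43 (water after chow) and -0.26 to 0.51 (water after fast food). Acot4 ranged from -0.298 to 0.0222 and Acot8 from -0.182 to 0.0296 (meal in control water).

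Same-numbered libraries showed little likeness: 3 of 24 same-numbered pairs correlated over 0.1 (-0.222 to 0.359), and 5 best with their own number. The labels name no pairing, and such values cannot show that there was none. With the replicate block, Acot3 was 0.0925 (meal in control water) and -0.12 (water after fast food), Acot4 lost its call for the meal in antibiotic water (0.71, edgeR adjusted p = 0.079), and 2 members were called there instead of 3.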
